A study of Mus musculus with 128 samples.

Results

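Interscapular brown adipose tissue (BAT) and reproductive white adipose tissue (WAT) were compared within the same animals in LG/J mice fed a high-fat diet. LG/J is an inbred mouse strain selected long ago for large body size. The comparison took the brown and the white library that carried the same animal number, and it left out animal 351. This gave 30 of the series' 128 samples, which form 15 pairs. The pairs came from 8 females and 7 males: 4 females and 3 males at 20 weeks, and 4 females and 4 males at 30 weeks. The labels give no treatment apart from the diet and no engineered allele. Where the depot difference was set against other mice, those were 16 LG/J mice fed the low-fat diet and 16 high-fat mice of the inbred strain SM/J, with the same sexes and ages.

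Brown fat burns fuel to make heat. Its adipocytes are packed with mitochondria, and uncoupling protein 1 (Ucp1) lets protons re-enter the mitochondrial matrix without making ATP, so that respiration is released as heat when noradrenaline reaches the cell. White fat stores triglyceride, releases fatty acids and secretes hormones such as leptin, and in obese animals it gathers macrophages around dying adipocytes. The reproductive fat pad is anatomically different in the sexes, lying around the epididymis in males and around the ovary and uterus in females. A difference between sexes in this pad therefore cannot be told apart from a difference between the pads.

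The values are the authors' normalised signal per gene, which is not a whole count, and the brown and white fat of these mice are in separate tables that list different genes. There were 12716 genes in the brown table and 13909 in the white one. The 12358 shared genes were rescaled together by the median ratio to each gene's geometric mean. Levels below are on that scale unless they are called deposited values or belong to the diet and strain comparisons. For these, the genes shared by all mice compared (12292 and 12123) were rescaled anew, so levels of the same libraries differ slightly there. Differences are log2(BAT + 1) minus log2(WAT + 1) with their standard errors (SE) over 15 pairs, with the animal as a block, tested by limma. A gene was called over 2-fold higher in a depot when limma's treat test against a log2 difference of 1 gave a Benjamini-Hochberg adjusted p under 0.05. A call of any size used the test against 0. As with any bulk tissue, more cells of a type and more RNA per cell cannot be told apart.

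A pair of white libraries went against their sex labels. A score from 40 genes that separated the sexes best in the white libraries of the SM/J high-fat group ran from -0.453 to 1.22 in the 8 LG/J high-fat females and from 2.51 to 3.84 in the 7 males used here. The white library labelled male 351 scored 1.23, next to the females, and held Hoxa10 at a deposited value of 421.9, against 256.0 to 406.4 in females and at most 1.94 in the other males. In the low-fat mice the white library labelled female 350 scored 3.73, above the 8 males (2.86 to 3.55) and the 7 other females (-0.247 to 1.09). Animal 351 is outside all values below unless it is said to be kept, and the diet comparison is also given without animal 350.

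Over 2-fold differences were found in both directions. Of the 12358 genes, 1208 (9.78%) were over 2-fold higher in BAT and 1639 (13.3%) were over 2-fold higher in WAT. The counts of list members below are to be set against these shares, which change with the scaling. Differences of any size were called for 5135 genes higher in BAT (41.6%) and 5148 higher in WAT (41.7%), which left 2075 with no call. The rescaling sets the middle of all genes near 0 (median log2 difference 0.00). Setting the summed signal equal moved that median to -0.29, and it was -0.35 in the values as deposited. BAT-higher genes were 49.9% of the calls of any size with the median-ratio scaling, 31.8% with equal sums and 28.6% as deposited. Among over 2-fold calls these shares were 42.4%, 28.2% and 25.4%. A difference of about 0.3 or less on the log2 scale thus has a direction that depends on the scaling.

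Of all lists, that of brown and thermogenic adipocytes had the largest median log2 difference. Its members were chosen as known brown fat genes, so the choice of list favours a higher level in BAT. Of the 15 members of the brown and thermogenic adipocyte list in both tables, 14 were over 2-fold higher in BAT and none in WAT, with a median log2 difference of 4.83. Ucp1 levels ran from 98597 to 216187 in BAT, with a median of 146198, and from 23.4 to 3213 in WAT, with a median of 187.9. The depots did not overlap, and Ucp1 was 9.53 ± 0.46 (SE) higher in BAT on the log2 scale, about 740-fold, in 15 of 15 pairs (limma treat, adjusted p = 7.88e-12). White fat itself was uneven in Ucp1. Its level there was 3213 in male 533, 1014 in female 510, 821.9 in female 688 and 693.6 in female 623, and at most 329.5 in the other 11 animals.

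**Figure D1:**
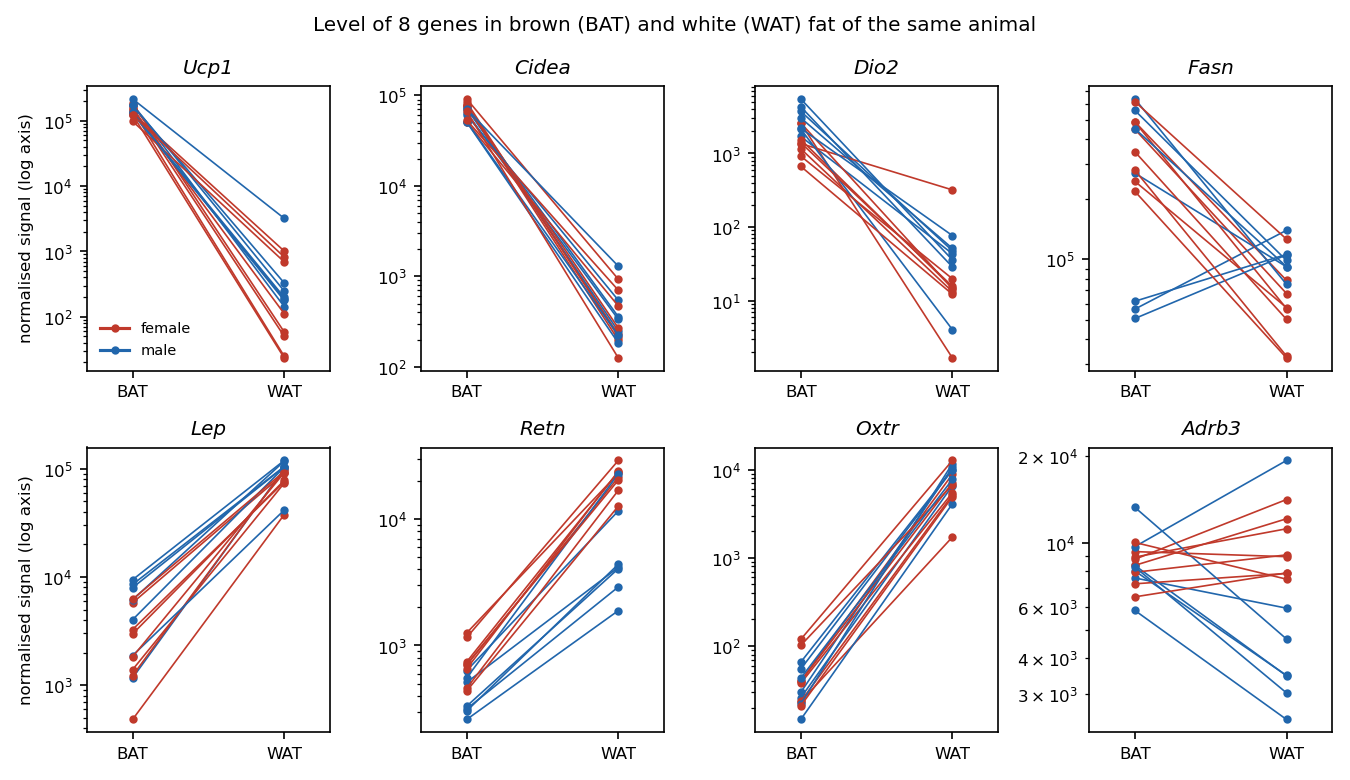
Normalised signal (log axis) of 8 genes in brown (BAT) and white (WAT) fat, 1 line per animal, 8 females in red and 7 males in blue. Ucp1, Cidea and Dio2 fall from BAT to WAT in all 15 animals, Lep, Retn and Oxtr rise in all 15, Fasn is lower in WAT in 12 of 15 animals, and the lines of Adrb3 cross.

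Cidea, a lipid droplet protein that is a classical brown fat marker, had levels from 50820 to 91360 in BAT and from 125.2 to 1295 in WAT, a log2 difference of 7.62 ± 0.23. Dio2 makes the active thyroid hormone T3 inside the cell. It ran from 667.6 to 5507 in BAT and from 1.66 to 319.4 in WAT, and the log2 difference was 6.35 ± 0.41 (limma treat, adjusted p = 1.32e-09). Pank1, which starts coenzyme A synthesis, was 6.82 ± 0.14 higher, and Acot11, a thioesterase induced in brown fat by cold, 6.41 ± 0.26 higher. The list member without a call was Adrb3, the β3-adrenergic receptor through which noradrenaline acts on both kinds of adipocyte. Its levels were 5848 to 13286 in BAT and 2455 to 19301 in WAT. It was higher in BAT in 8 of 15 pairs, with a log2 difference of 0.29 ± 0.20 that turned to -0.065 in the values as deposited.

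The genes with the largest BAT differences, beyond those above, included genes of fuel use and others. Fabp3, a fatty acid carrier of heart and oxidative muscle, ranged from 16583 to 43227 in BAT and from 90.1 to 632.1 in WAT, a log2 difference of 7.23 ± 0.19. Gpd2, the mitochondrial glycerol-3-phosphate dehydrogenase, was 5.54 ± 0.08 higher in BAT, and Coq8a, needed to make coenzyme Q, 5.51 ± 0.10 higher. Ntrk3, the receptor for neurotrophin 3, was 6.70 ± 0.20 higher, Lgr6, a receptor for R-spondins, 6.45 ± 0.45 higher, and Kng2, a kininogen, 6.04 ± 0.16 higher. Lgr6 was at 0 in at least 1 white library and at most 105.6 in the others, against 808.6 to 1403 in BAT.

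Of the transcription regulators of brown adipocytes, 11 of 22 were over 2-fold higher in BAT and none in WAT, with a median log2 difference of 1.33. With equal sums the count was 10, and 2 were then over 2-fold higher in WAT. Ppara, the nuclear receptor for fatty acids, had levels of 8623 to 12829 in BAT and 147.2 to 344.0 in WAT, a log2 difference of 5.56 ± 0.10. The coactivators Ppargc1a (4.83 ± 0.09) and Ppargc1b (4.32 ± 0.11), which drive mitochondrial biogenesis, and the oestrogen-related receptor Esrrg (4.11 ± 0.13) followed. Prdm16, which holds the brown identity, ran from 512.0 to 1191 in BAT and from 47.4 to 142.0 in WAT, a log2 difference of 3.22 ± 0.09. Pparg, the receptor that all adipocytes need, differed less, by 1.17 ± 0.07 with a treat adjusted p = 0.0572. Nrip1, a corepressor of oxidative genes, was 1.10 ± 0.09 higher in WAT on the log2 scale (limma, any size, adjusted p = 1.57e-09).

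Stretches of 100 bases before the start sites of 3 genes that were over 2-fold higher in BAT are shown because they hold the letters that the cAMP-responsive factors and the oestrogen-related receptors bind. They are RefSeq sequence of build GRCm38.p6, 5′ to 3′ along the gene, with the motif in capitals. The region of Dio2 is chr12:90739080-90739179 on the minus strand, with the cAMP response element core 87 bases before the start. The region of Perm1, a muscle regulator of oxidative genes that was 5.67 ± 0.13 higher in BAT, is chr4:156215678-156215777 on the plus strand, with the half-site of the receptors on the other strand, 195 bases before the start. The region of Acadm, an acyl-CoA dehydrogenase that was 2.88 ± 0.07 higher in BAT, is chr3:153944794-153944893 on the minus strand, with the half-site on the other strand, 242 bases before the start.
Dio2: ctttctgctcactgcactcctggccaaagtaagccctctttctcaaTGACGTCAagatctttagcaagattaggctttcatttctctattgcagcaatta
Perm1: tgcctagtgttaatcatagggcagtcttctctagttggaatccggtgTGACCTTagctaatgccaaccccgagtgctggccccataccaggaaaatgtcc
Acadm: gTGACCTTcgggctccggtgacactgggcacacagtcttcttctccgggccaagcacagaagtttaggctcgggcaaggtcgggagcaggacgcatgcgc

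Over the 250 bases before the start, on both strands, TGACGTCA was present in 296 of 9382 tested genes with a RefSeq promoter (3.15%). It was present in 37 of 922 genes over 2-fold higher in BAT (4.01%) and in 18 of 1234 over 2-fold higher in WAT (1.46%). The half-site AAGGTCA, which does not overlap that core, was present in 317 of all (3.38%), in 48 of the BAT-higher genes (5.21%) and in 34 of the WAT-higher genes (2.76%). The 100 bases before the start of Ucp1 hold neither run of letters. These are counts of letters, and no test was made.

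The respiratory chain was higher in BAT across all its complexes. Of the genes listed for complex I, 35 of 36 were over 2-fold higher in BAT (median log2 difference 2.58). The counts were 4 of 4 for complex II (3.21), 9 of 9 for complex III (2.92), 12 of 13 for complex IV (2.62) and 13 of 16 for complex V (2.33). Against this, 9.78% of all genes were over 2-fold higher in BAT. The ATP synthase did not move as 1 block. Atp5b, its catalytic β subunit, was 2.87 ± 0.07 higher in BAT, from 23018 to 28764 in WAT and from 163202 to 215677 in BAT. Atp5g1, one of several genes for the identical c subunit of the rotor, ran from 608.3 to 1048 in WAT and from 83.5 to 213.9 in BAT. It was thus higher in WAT, by 2.46 ± 0.08 on the log2 scale (limma treat, adjusted p = 9.43e-12), in 15 of 15 pairs. The ATP synthase inhibitor Atpif1 was also higher in WAT, with a log2 difference of -1.58. Among the genes listed for complex I the exception was Ndufa4l2, at -0.28 ± 0.09. It was counted by list, and its place in the complex was not tested.

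Some complex IV subunits are made from paired gene copies. Cox7a1 and Cox8b are the copies found in heart, muscle and brown fat, while Cox7a2 and Cox8a are made in most tissues. Cox7a1 was 6.19 ± 0.16 higher in BAT and Cox7a2 2.36 ± 0.12. Cox8b was 6.10 ± 0.15 higher and Cox8a 2.06 ± 0.09. Shares were taken per kilobase of all annotated exons of a gene, so their size depends on the annotation. Their order between the depots does not. Cox7a1 made up 74.9% ± 1.28 (SD, n = 15) of the pair's level in BAT and 17.7% ± 5.49 in WAT. The share of Cox8b was 60.3% ± 2.62 in BAT and 8.75% ± 2.72 in WAT. The highest white share was 33.9% for Cox7a1 and 16.2% for Cox8b, below every brown share. The pair of Cox4i2 and Cox4i1 ran the other way, with a Cox4i2 share of 0.480% ± 0.0821 in BAT (0.349% to 0.632%) and 2.56% ± 0.588 in WAT (1.63% to 3.58%). Cox4i1 was 2.62 ± 0.08 higher in BAT, while Cox4i2, the copy known from lung, differed by 0.19 ± 0.12 and was not called (limma, any size, adjusted p = 0.132).

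**Figure D2:**
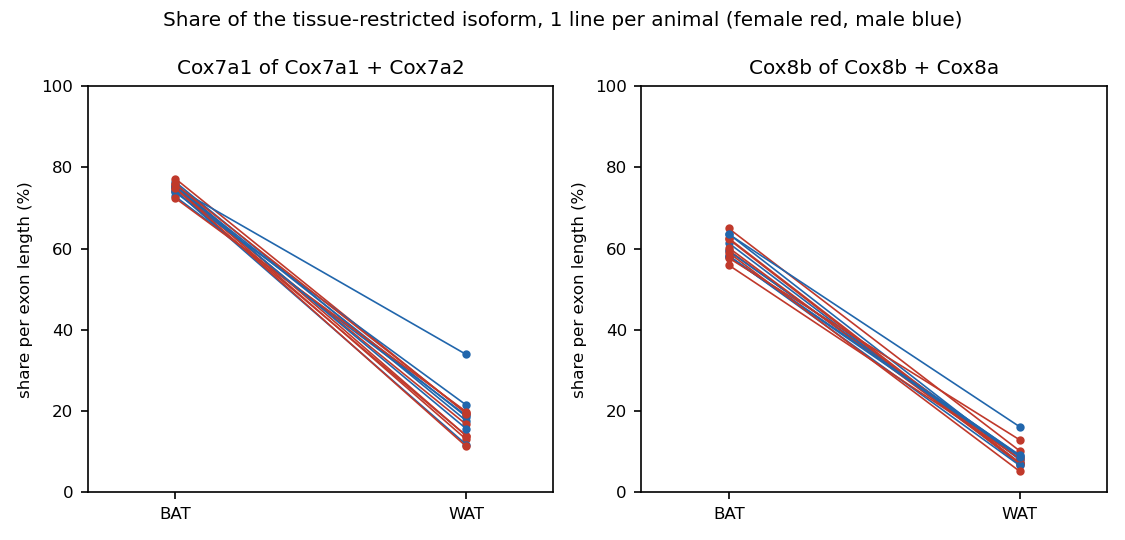
Share of Cox7a1 in the summed level of Cox7a1 and Cox7a2 (left) and of Cox8b in that of Cox8b and Cox8a (right), in percent. Levels are per length of all annotated exons, with 1 line per animal from BAT to WAT. Brown shares run from 72.4% to 77.2% for Cox7a1 and from 55.9% to 64.9% for Cox8b, above every white share.

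The pathways that feed the chain were higher in BAT as well. In the tricarboxylic acid cycle 14 of 15 genes were over 2-fold higher in BAT, with a median log2 difference of 3.26. In fatty acid oxidation 17 of 19 were over 2-fold higher in BAT, among them Acadvl (4.54 ± 0.05), Acadl (4.33 ± 0.06) and Hadhb (4.00 ± 0.05). Cpt1a, the liver form of the enzyme that admits fatty acids to mitochondria, was the member over 2-fold higher in WAT, from 2062 to 3682 there and from 467.5 to 743.9 in BAT. Cpt1b, the muscle form, was listed in the brown table alone, at a deposited value of 461.6 ± 89.8 (SD, n = 15).

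Making of mitochondria showed the same direction with smaller differences. Of 20 genes of mitochondrial biogenesis and dynamics, 15 were over 2-fold higher in BAT (median 1.42), led by Chchd10 (4.64 ± 0.14), a protein of the mitochondrial intermembrane space, and Letmd1 (4.53 ± 0.08). That count was 10 with equal sums and 9 as deposited. Of 73 mitochondrial ribosomal proteins 46 were over 2-fold higher in BAT, and 32 with equal sums. The 72 cytosolic ribosomal proteins had no over 2-fold call, and their median was -0.13. Mitochondrial carriers were divided, with 18 of 37 over 2-fold higher in BAT and 5 in WAT. The brown count was 13 with equal sums and 10 as deposited, and the white count stayed at 5. Slc25a48 (5.22 ± 0.17), Slc25a34 (4.28 ± 0.21) and the carnitine carrier Slc25a20 (3.69 ± 0.06) were higher in BAT. Slc25a10, the dicarboxylate carrier, ran from 2776 to 5820 in WAT and from 150.7 to 459.6 in BAT, a log2 difference of -4.04 ± 0.10.

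**Figure D3:**
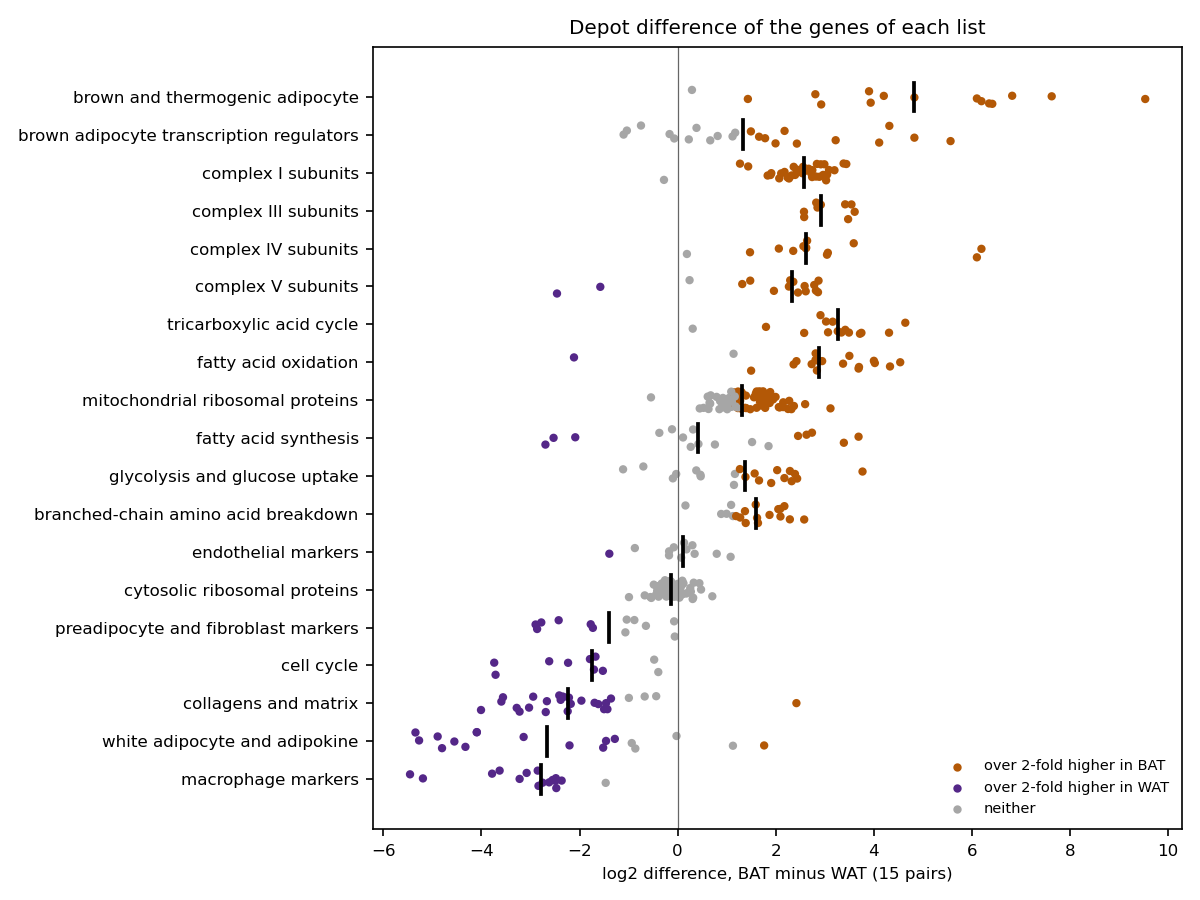
Log2 difference (BAT minus WAT, 15 pairs) of each gene of 19 lists, with the median of each list as a black bar, coloured by whether the gene was over 2-fold higher in a depot. Respiratory chain and oxidation lists lie to the right (medians 2.33 to 3.26), matrix, white adipocyte and macrophage lists to the left (medians -2.24 to -2.80), and cytosolic ribosomal proteins around 0.

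Enzymes of fatty acid synthesis were mixed. Of 17 genes 5 were over 2-fold higher in BAT and 3 in WAT, where 9.78% and 13.3% of all genes were. Thrsp, a lipogenic regulator, was 3.69 ± 0.16 higher in BAT, and the acetyl-CoA carboxylases Acacb and Acaca were 3.39 ± 0.12 and 2.74 ± 0.22 higher. The desaturase genes Fads1 and Fads2 had log2 differences of -2.70 and -2.53. Fasn, fatty acid synthase, was higher in BAT in 12 of 15 pairs, with a log2 difference of 1.85 ± 0.37 and a treat adjusted p = 0.0698 (limma).

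The 3 other pairs were those of males 403, 619 and 625, with Fasn in BAT at 56406, 61748 and 50619 against 219266 to 636269 in the other 12 animals. The same 3 brown libraries had the lowest levels of Acaca (12141 to 14681, others from 29857), Elovl6 (3282 to 3518, others from 8310), Acly (8566 to 10441, others from 13800) and Thrsp (21166 to 31614, others from 40271). They also had the lowest deposited values of Elovl3, a fatty acid elongase of brown fat, at 25.3 to 38.7, against 211.1 to 2231 in the others. In white fat these 3 males had Fasn levels of 139933, 105978 and 105476, all within or above the range of the other animals (32113 to 126349). These animals were singled out after their values were seen, so no test is given.

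Other lipid lists were also divided, where 9.78% of all genes were over 2-fold higher in BAT and 13.3% in WAT. No test of these lists against those shares was made. In triglyceride synthesis 7 of 14 genes were over 2-fold higher in BAT, among them Gpd1 (3.21 ± 0.14), and Mogat2 was over 2-fold higher in WAT (-1.93 ± 0.21). In lipolysis and lipid droplets 3 of 16 were over 2-fold higher in BAT: Cidea, Plin5 (3.93 ± 0.08), which ties droplets to mitochondria, and the triglyceride lipase Pnpla2 (1.31 ± 0.10), which lost that call with every other scaling. With equal sums and as deposited, 2 of the 16 were over 2-fold higher in each depot. Plin1, the main droplet coat of adipocytes, differed by -0.16 ± 0.07, with overlapping levels of 27789 to 37055 in BAT and 29682 to 46192 in WAT. In lipid uptake 4 of 14 were over 2-fold higher in BAT, Fabp3 and Angptl8 (1.96 ± 0.12) among them, and the transporter Slc27a1 was higher in WAT (-1.39 ± 0.07). With equal sums and as deposited, 2 of the 14 were over 2-fold higher in BAT and 4 in WAT. Fabp4, the fatty acid binding protein of all adipocytes, differed by 0.00.

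Glucose and amino acid use leaned to BAT. Of 21 glycolysis genes 12 were over 2-fold higher in BAT and none in WAT, a count of 10 with equal sums, and as deposited 9 and 1. Ldhb, the lactate dehydrogenase form of oxidative tissues, was 3.77 ± 0.07 higher, Pfkl 2.44 ± 0.11 and Pkm 2.39 ± 0.12. The insulin-responsive glucose transporter Slc2a4 had a log2 difference of 1.66 and Slc2a3 one of -1.11 ± 0.16. Of 19 genes of branched-chain amino acid breakdown, 14 were over 2-fold higher in BAT (10 with equal sums), with Bckdha, a subunit of the committed enzyme, at 2.58 ± 0.07.

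Genes of other proposed heat cycles went both ways, with 4 of 9 over 2-fold higher in each depot. The calcium channels Itpr2 (2.81 ± 0.06) and Ryr2 (2.12 ± 0.07) were higher in BAT. Ckb, the creatine kinase of the creatine cycle, was higher in WAT, from 1263 to 4713 there and from 350.9 to 650.4 in BAT, a log2 difference of -2.15 ± 0.15. The calcium pump Atp2a3 was at -3.20 ± 0.13. Uncoupling proteins also parted, since Ucp3, of muscle and brown fat, was 2.93 ± 0.12 higher in BAT, and Ucp2, widely made and high in immune cells, was higher in WAT (-1.85 ± 0.07).

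In adrenergic signalling 6 of 17 genes were over 2-fold higher in BAT and 1 in WAT. The α1A receptor Adra1a ran from 2956 to 4740 in BAT and from 264.9 to 619.0 in WAT (3.29 ± 0.12), and the β1 receptor Adrb1 had a log2 difference of 2.22. Gnas, the stimulatory G protein, was 2.45 ± 0.07 higher and the cAMP phosphodiesterase Pde4d 2.57 ± 0.08 higher. The adenylyl cyclase Adcy5 was the member higher in WAT, with levels of 3715 to 7397 there and 110.9 to 265.3 in BAT, a log2 difference of -4.74 ± 0.10 in 15 of 15 pairs. The isoforms Adcy3 and Adcy6 differed by 0.02 and 0.41.

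Known adipokine and storage genes of white fat were mostly higher in WAT, a direction that the choice of list favours. Of 18 such genes 13 were over 2-fold higher in WAT and 1 in BAT, with a median log2 difference of -2.67, against 13.3% of all genes over 2-fold higher in WAT. Lep, leptin, ran from 37796 to 119913 in WAT and from 480.0 to 9431 in BAT, a log2 difference of -4.80 ± 0.24 (limma treat, adjusted p = 6.46e-11). Mest, which rises when white adipocytes enlarge, was at -5.35 ± 0.14, transferrin (Trf) at -5.27 ± 0.12 and Nnat at -4.89 ± 0.32. Retn, resistin, had a log2 difference of -4.33 ± 0.20, with white levels from 1886 to 29042. Adiponectin (Adipoq) differed less, by -0.94 ± 0.17. Its levels overlapped, from 14577 to 28738 in BAT and from 13625 to 91172 in WAT, and BAT was the higher in 3 of 15 pairs. The member higher in BAT was Nrg4, a growth factor that brown fat secretes, at 1.76 ± 0.12. Secreted factors of brown fat were divided as a list, with 3 of 12 over 2-fold higher in BAT and 5 in WAT (median -0.70). Bmp8b and Ptgds of that list were in the brown table alone, and Fgf21, Bmp7 and Gdf15 in the white table alone.

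Other large white differences were in receptors, developmental factors and secreted proteins. The oxytocin receptor Oxtr ran from 1726 to 12767 in WAT and from 14.7 to 118.9 in BAT, a log2 difference of -7.49 ± 0.18, the largest in WAT under the naming rule. Sfrp5, a secreted Wnt antagonist, followed at -6.72 ± 0.12, Bmp3 at -6.12 ± 0.15 and the acute-phase inhibitor Serpina3n at -5.65 ± 0.21. Ffar2, the receptor for short-chain fatty acids, was at -5.20 ± 0.18, and Psat1, of serine synthesis, at -5.15 ± 0.14. None of these overlapped between the depots, but they were picked for the largest differences with the same sign in all pairs. Lbp, Ptprf, Vgll3 and Aldh1a1, a retinaldehyde dehydrogenase, completed the named genes with log2 differences of -4.91 to -5.18.

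Matrix and macrophage genes were higher in WAT. Of 27 collagen and matrix genes 23 were over 2-fold higher there, with a median of -2.24, led by Col15a1 (-4.01 ± 0.06), Col6a1 (-3.59 ± 0.08) and fibronectin Fn1 (-3.56 ± 0.10). Col12a1 was the exception at 2.42 ± 0.18. Of 16 macrophage markers 15 were over 2-fold higher in WAT, with a median of -2.80, and 6 more, among them Itgax and Spp1, were listed in the white table alone. Trem2 and Gpnmb, made by lipid-laden macrophages, had log2 differences of -5.46 ± 0.19 and -5.19 ± 0.32. The summed level of the 16 markers ran from 27987 to 102453 in WAT and from 4397 to 11588 in BAT. Within white fat the sum was 31987 to 58038 in the 8 females. It was 74353 to 102453 in 6 males and 27987 in male 537, the lowest of all.

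Endothelial and nerve markers differed less or were thinly measured, while fibroblast and cell cycle genes were mostly higher in WAT. Endothelial markers had 1 of 12 over 2-fold higher in WAT (Vwf, -1.39 ± 0.08) and none in BAT, with a median of 0.10 that was -0.19 with equal sums, and their summed level overlapped (19936 to 26951 in BAT, 17777 to 27349 in WAT). Preadipocyte and fibroblast markers had 6 of 12 over 2-fold higher in WAT, led by Lum (-2.90 ± 0.16) and Dpp4 (-2.87 ± 0.23). Their median was -1.40, and their summed level did not overlap (7485 to 11325 in BAT, 25214 to 41553 in WAT). Of 10 cell cycle genes 8 were over 2-fold higher in WAT, with Top2a at -3.74 ± 0.20 and Mki67 at -3.71 ± 0.23. The S100b gene, a Schwann cell marker also made by brown adipocytes, was 4.20 ± 0.14 higher in BAT, while the other 4 measured Schwann and nerve markers had log2 differences of -0.91 to 0.20.

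Acta1, skeletal muscle actin, was higher in WAT in 14 of 15 pairs, with a log2 difference of -5.18 ± 0.69. Myl1, a myosin light chain and the other muscle marker in both tables, was 1.60 ± 0.09 higher in BAT in 15 of 15 pairs, over 2-fold (limma treat, adjusted p = 1.32e-05). In BAT, Acta1 was 2036 in female 517, 1753 in female 281 and 902.8 in male 537, and at most 108.0 in the other 12. Of the 13 muscle markers 9, myosin heavy chains among them, were in neither table. None of the 10 epididymis markers was in either table, and of the 9 ovary and oviduct markers Star alone was, with a log2 difference of -0.93 ± 0.16. The part of other tissues in these results was not tested.

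Hox genes, which record position along the body axis, are numbered by their place in the cluster. In paralogue groups 1 to 5, 5 of the 9 genes in both tables were higher in BAT at any size and 2 in WAT, where 41.6% and 41.7% of all genes were. Hoxb2 and Hoxb5 were listed in the white table alone. In groups 6 to 8 none of 7 was higher in BAT and 6 were higher in WAT, and Hoxb8 was listed in the white table alone. All 6 genes of groups 9 to 13 were listed in the white table alone. Hoxa4 (2.49 ± 0.07) and Hoxa5 (2.21 ± 0.10) were over 2-fold higher in BAT. Hoxc8 ran from 552.6 to 1316 in WAT and from 28.1 to 84.4 in BAT, at -3.79 ± 0.08, and Hoxb7 was at -1.98 ± 0.14. Hoxd3, of the lower-numbered groups, was also over 2-fold higher in WAT (-1.85 ± 0.17).

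The posterior Hox genes were also uneven within white fat. Deposited values of Hoxa10 were 256.0 to 406.4 in the 8 females and 0.0 to 1.94 in the 7 males. Those of Hoxa9 were 200.3 to 309.8 in females and 0.849 to 14.7 in males, those of Hoxc10 122.2 to 191.4 and 0.0 to 10.7, and those of Hoxa11 22.2 to 65.2 and 0.0 to 0.406. Hoxc9 did not overlap between the sexes either (184.8 to 275.5 against 29.2 to 73.8). Hoxd9 overlapped, with 95.1 to 164.9 in females and 31.1 to 122.9 in males. No test was fitted to these values.

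**Figure D4:**
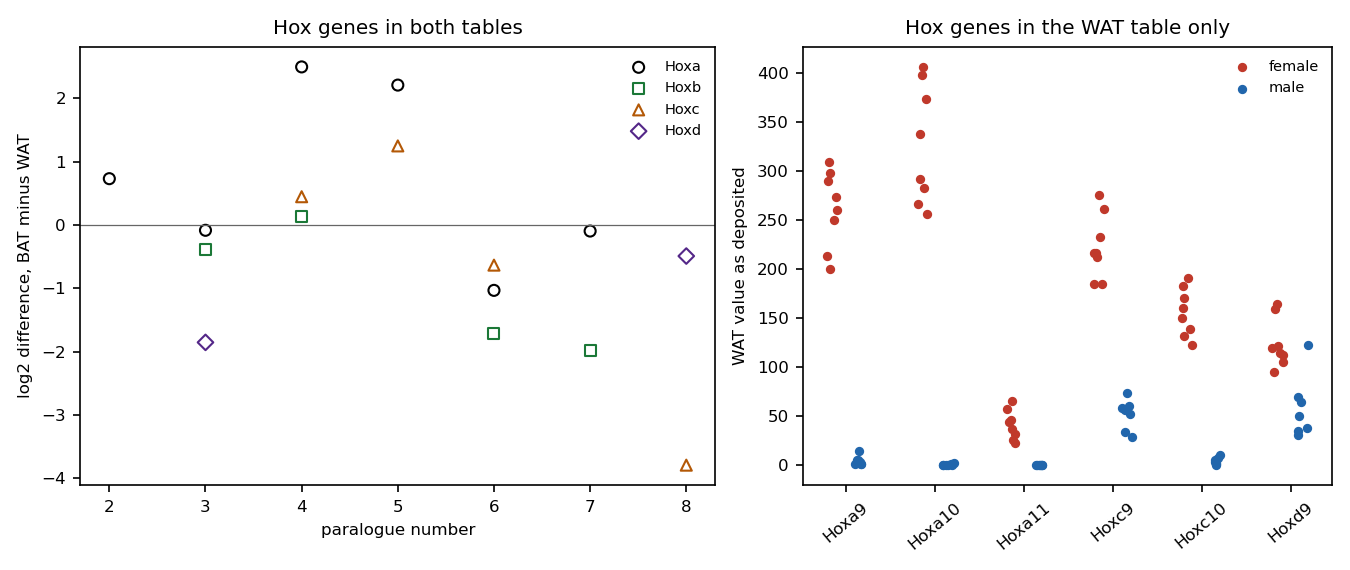
Left, log2 difference (BAT minus WAT) of the 16 Hox genes in both tables against their paralogue number, marked by cluster. Right, deposited white fat values of the 6 Hox genes of groups 9 to 13, which the white table alone lists, with 1 point per animal (8 females red, 7 males blue): Hoxa9, Hoxa10, Hoxa11, Hoxc9 and Hoxc10 do not overlap between the sexes.

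Other positional factors followed the tables. Zic1, a classical interscapular brown fat marker, was listed in the brown table alone at a deposited value of 173.1 ± 39.5 (SD, n = 15), as were Lhx8 (103.5 ± 34.9) and Tbx15 (67.0 ± 15.1). Wt1 (349.1 ± 167.0), Tcf21 (73.8 ± 33.0) and Emx2 were listed in the white table alone. Gata6 was in both, at -3.39 ± 0.13, and Tbx5 was 2.02 ± 0.26 higher in BAT.

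Genes listed in 1 table alone have no measured value in the other, so no difference is given for them. There were 358 in the brown table alone and 1551 in the white table alone. Of these, 9 and 23 had a mean deposited value of at least 500. In brown fat they were led by Slc27a2, a very long-chain acyl-CoA synthetase, at 3950 ± 1118 (SD, n = 15), then Cpn2 at 1817 ± 275.5, Gldn at 1626 ± 377.2, Myo5c at 938.2 ± 252.7, Lrrc15 at 869.3 ± 191.9 and Elovl3 at 828.7 ± 678.3. In white fat Mmp12, a macrophage elastase, led at 3393 ± 2886, with a range of 122.9 to 8024. Col6a5 followed at 2213 ± 2106, with 164.8 to 1090 in females and 2380 to 6153 in males. Upk3b, a mesothelial marker, was at 1319 ± 1126, and 9 other mesothelial markers, Msln and Krt19 among them, were also listed in the white table alone. Slc6a13, a GABA and taurine transporter, was more even at 1101 ± 179.0.

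The depot difference itself varied with sex. Its interaction with sex, tested on the within-animal differences with age as covariate (limma), was called for 1486 of 12358 genes. It was higher in males (BAT relative to WAT) for 698 genes (5.65%) and higher in females for 788 (6.38%). With animal 351 kept these counts were 243 and 226. Leaving out male 537 raised them to 1219 and 1533, and leaving out any 1 of males 344, 403, 619 and 625 lowered them to between 364 and 465 and between 399 and 500.

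Cyp1b1, an oestrogen-metabolising cytochrome P450, had the smallest p. Its white levels were 361.5 to 599.6 in females and 1162 to 1745 in males, with no overlap, while brown levels were 163.2 to 211.8 and 160.0 to 232.6. The depot difference was -1.39 in females and -2.97 in males, and the sexes differed by -1.58 ± 0.11 (adjusted p = 2.31e-06). Nrn1, a neuritin, was 35.9 to 115.6 in white fat of females and 0.0 to 7.30 in that of males, against 52.8 to 103.1 and 37.2 to 101.5 in BAT, a sex difference of 3.42 ± 0.38. Ret, a receptor for GDNF-family ligands, differed by 1.48 ± 0.15 and Tmem45a by 1.82 ± 0.21.

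Among the lists, adipokine and macrophage genes were called in opposite directions. Of 18 white adipocyte genes 7 had a higher difference (BAT relative to WAT) in males and 1 a lower one. The 7 included Cfd (2.43 ± 0.56), Adipoq (1.18 ± 0.20) and Retn (1.13 ± 0.30), and also Nrg4 (0.70), which was higher in BAT. Adipoq was 57526 in white fat of females and 23486 in that of males on average, against 20601 and 17570 in BAT. Of 16 macrophage markers 3 had a more negative difference in males: Gpnmb (-1.67 ± 0.50), Adgre1 (-1.14 ± 0.32) and Cd68 (-0.98 ± 0.30). With animal 351 kept these counts were 2 and 1 of 18, and none of 16. Without male 537 they were 11 and 1 of 18, and 9 of 16. Adrb3 was also among the calls, at -0.21 in females and 0.86 in males (adjusted p = 0.0376). With animal 351 kept, neither Adrb3 nor any other of the 17 adrenergic genes was called. Male 537 lay apart from the other males of 30 weeks in Adrb3, with a white level of 19301. Ucp1 was not called, with mean differences of 9.97 in females and 9.03 in males (adjusted p = 0.572). In simulated data of this size 12158 genes were unchanged and the noise was independent. There the test called 33.8% of genes changed by 0.5 on the log2 scale and 93.9% of those changed by 1.5. More genes were called in the measured data, so these rates may not carry over.

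**Figure D5:**
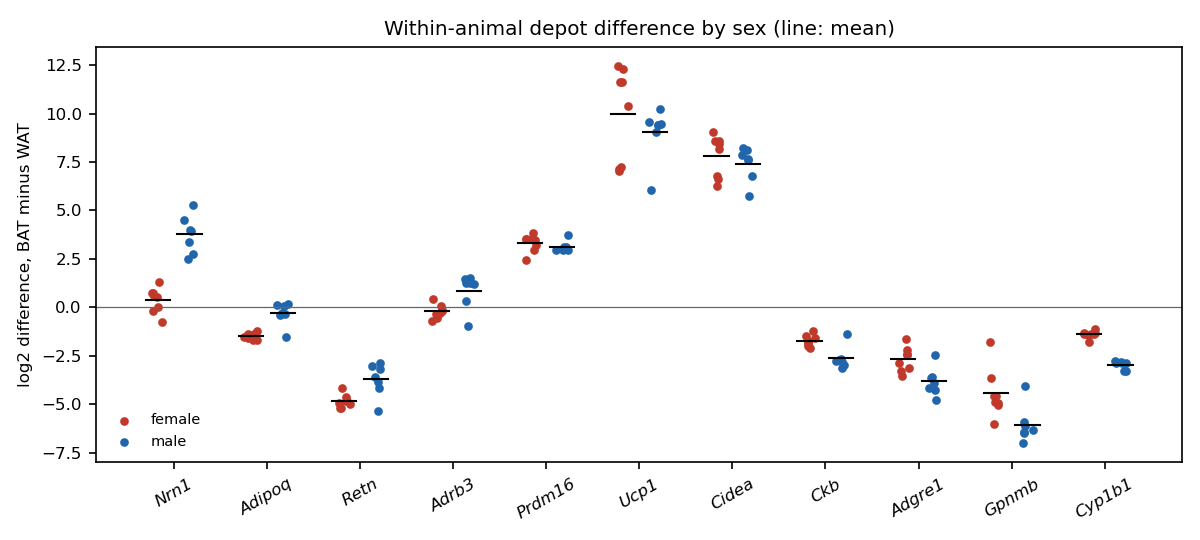
Within-animal log2 difference (BAT minus WAT) of 11 genes, 1 point per animal, females red and males blue, with the mean of each sex as a black line. Cyp1b1 and Nrn1 do not overlap between the sexes, Adipoq is about -1.5 in male 537 and nearer to 0 in the other males, and Ucp1, Cidea and Prdm16 overlap.

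Age gave no call. The interaction of the depot difference with age, 30 against 20 weeks with sex as covariate, was called for none of 12358 genes in either direction (0.0% each, limma), with a smallest adjusted p of 0.998 and 450 genes at an unadjusted p under 0.05. Aldh3b2 had the smallest p among genes higher at 30 weeks, with depot differences of -2.50 at 20 weeks and -1.65 at 30 weeks.

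The depot difference also depended on diet. In LG/J mice, 15 on high-fat and 16 on low-fat food, the interaction was called for 1343 of 12292 genes: 680 higher on the high-fat diet (5.53%) and 663 higher on the low-fat diet (5.39%). Without low-fat animal 350 there were 725 and 725, and with animal 351 kept 390 and 338. Insig1, which restrains sterol and fat synthesis, had white levels of 6110 to 15100 on the high-fat diet and 2038 to 8767 on the low-fat diet, and brown levels of 6923 to 14421 and 6373 to 23859. Its depot difference was -0.04 on the high-fat and 1.53 on the low-fat diet, a difference of -1.59 ± 0.21 (adjusted p = 3.43e-05).

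Lipid synthesis genes shared that direction. Of 17 fatty acid synthesis genes 9 were called, all with a higher BAT-to-WAT difference on the low-fat diet, with a median of -0.69 against 0.00 over all genes. They included Scd1 (-1.10 ± 0.27), Scd3 (-1.18 ± 0.23), Me1 (-0.96 ± 0.24) and Fads1 (-0.64 ± 0.12). Scd1 averaged 947091 in white fat on the high-fat and 476207 on the low-fat diet, while BAT averaged 887038 and 877253. The 3 Scd genes are close relatives, and reads can be divided among them. The count was 9 without animal 350 and 7 with animal 351 kept.

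Brown regulators and branched-chain amino acid breakdown were called in the opposite direction, and macrophage markers in the same one. Of 22 regulators 8 had a higher BAT-to-WAT difference on the high-fat diet and none on the low-fat diet. They included Prdm16 (0.74 ± 0.13), Ppara (0.60 ± 0.16) and Ppargc1b (0.58 ± 0.14), and also the corepressor Nrip1 (0.48). Ucp1 was not called, at 9.53 on the high-fat and 9.88 on the low-fat diet (adjusted p = 0.812). Of 19 branched-chain genes 11 were called in the same direction, by 0.23 to 0.42. Of 16 macrophage markers 8 were called and more negative on the high-fat diet, such as Adgre1 (-1.19 ± 0.28), whose white mean was 3436 on the high-fat and 2346 on the low-fat diet. With animal 351 kept these 3 counts were 4, 6 and 2, and without animal 350 they were 8, 11 and 8. Dock8, Celsr2, Gpc1 and Hcn2 were among the 6 genes of smallest p with a higher difference on the high-fat diet, by 0.90 to 1.55.

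Strain changed the depot difference in many genes, with a balance between the directions that depended on the scaling. With high-fat feeding in both strains (15 LG/J and 16 SM/J animals), the interaction was called for 3043 of 12123 genes higher in LG/J (25.1%) and 3182 higher in SM/J (26.2%), and for 2182 and 3860 with equal sums. The brown and thermogenic list had 10 of 15 genes with a larger difference in LG/J and 1 with a smaller one. Ucp1 was 9.53 in LG/J and 7.89 in SM/J, a difference of 1.66 ± 0.59 (adjusted p = 0.0193), with brown means of 151022 and 96484. Dio2 differed by 1.45 ± 0.44 and Acot11 by 1.23 ± 0.27. The 22 brown regulators were divided, with 9 called higher in LG/J and 4 lower (median 0.15). Prdm16, among the 9, differed by 1.07 ± 0.15.

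White adipocyte genes were divided more sharply between the depots in LG/J. Of 18 such genes 10 had a lower difference (BAT relative to WAT) in LG/J and 1 a higher one. Lep averaged 89267 in white and 4155 in brown fat of LG/J mice, and 81268 and 15037 in SM/J mice, a difference of -2.21 ± 0.29. Of 27 matrix genes 18 and of 16 macrophage markers 11 were more negative in LG/J, and none was less so. The depot difference was also lower in LG/J for 11 of 12 endothelial markers (median -0.52) and 8 of 10 inflammatory cytokines and chemokines (median -1.34), and higher for none. The part of these cell types in the strain difference was not tested. Of 16 Hox genes 9 had a lower difference in LG/J, led by Hoxc8 (-1.82 ± 0.22). These 9 included Hoxc5 and Hoxc4, which were higher in BAT in LG/J (1.25 and 0.45). Hoxa4 went the other way, at 2.49 in LG/J and 1.78 in SM/J, a difference of 0.70 ± 0.12.

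The genes with the smallest p differed widely between the strains. Gpt2, alanine aminotransferase, averaged 345.9 in BAT and 2871 in WAT of LG/J mice, but 6667 and 6501 in SM/J mice, a difference of -3.07 ± 0.15 (adjusted p = 2.85e-16). C4a, a complement component, was 75.4 and 30.5 in LG/J and 158.1 and 1162 in SM/J, a difference of 4.09 ± 0.15. H2-Q10, a class I histocompatibility gene, was 256.4 and 1033 in LG/J and 3648 and 1215 in SM/J (-3.67 ± 0.16). Aldh1a7 differed by 4.52 ± 0.23 and Cachd1 by -2.66 ± 0.14. C4a, H2-Q10 and Aldh1a7 have near-identical relatives, so that their values are uncertain.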

How the data were processed

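Per the labels, total RNA of frozen interscapular and reproductive fat, depleted of ribosomal RNA, was sequenced. The submitters' processing notes name STAR 2.6.0c, the mm10 build and edgeR (no version stated). The deposited values are the authors' normalised signal per gene, fractional and in 1 table per depot, and how they were scaled and whether strand was counted is not given in the sources used here. Library totals of that signal ran from 18305800 to 21799100, and depth in reads is unknown. Genes of the X, Y and mitochondrial chromosomes are not analysed here. Positions and symbols came from GENCODE M21 (142 identifiers matched none) and promoter sequence from RefSeq. Of the value columns in the tables used, 0 had no sample.

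From these values the shared genes were rescaled, and log2(value + 1) was fitted with limma 3.58.1 (trend) in R 4.3.3 with animal and depot as terms. Sex, age, diet and strain were tested on within-animal differences. All adjusted p-values are Benjamini-Hochberg over all genes of the fit, two-sided. The labels call the 4 libraries of a group biological replicates. After removal of group means, brown and white libraries of the same number correlated at a median of 0.119 (0.00232 to 0.485, 15 pairs, 10 over 0.1), and 9 of 15 correlated best with their own number. The number was taken as the animal, as the comparison's rule states. Named genes were up to 15 per direction with the largest difference, a mean of at least 1000 in the higher depot and the same sign in all pairs. From each of 43 lists up to 4 members were named plus the largest of opposite sign, and up to 6 genes per direction in the other comparisons, with a fixed set of followed genes. Members, lists and rules were chosen with earlier results of these data known. A mean of 500 was the minimum for genes of 1 table, of which up to 12 per table could be named. Simulated data had 12358 genes, of which 12158 were unchanged, with independent noise and no animal effects. There the depot test called 79.4% of genes changed by 0.5 and 98.5% of those changed by 1.5 on the log2 scale. The over 2-fold test called 83.3% of the latter. Far more genes differed between the depots in the measured data, so these rates may not carry over. Alternatives were other scalings, a pseudocount of 10, a mean filter of 100, no block, animal 351 kept, each sex or age alone and each pair left out. Acadm, Acly, Adcy3, Adcy6, Adrb1, Atpif1, Cfd, Elovl6, Fabp4, Me1, Scd1, Scd3, Slc2a4 and the genes of 1 table with a mean under 500 fall outside the naming rule, their values being known when they were picked. Leaving out low-fat animal 350 was added after the data were seen. Some genes that the naming rule picks are not reported here.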

Additional observations from a re-analysis of the deposited data

Results flagged for a closer look

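Within the groups of 4 animals of 1 sex and age, the within-animal depot difference of 43 followed genes was checked for a single animal far from its group, by the gap to the nearest other animal over the group's range. Of 129 sets, chance alone gives about 1 in 20, and 11 were found, given here as log2 BAT minus WAT with the range of the other 3 animals. Ucp1 was 6.07 in the male of 30 weeks numbered 533, against 9.02 to 9.57. Prdm16 was 3.21 in the female of 20 weeks numbered 520, against 3.50 to 3.52. Adrb3 was -0.99 in the male of 30 weeks numbered 537, against 1.25 to 1.51. Cox4i1 was 1.99 in the female of 30 weeks numbered 688, against 2.48 to 2.55. Ckb was -1.39 in the male of 30 weeks numbered 537, against -3.11 to -2.84. Acta1 was 0.31 in the female of 30 weeks numbered 281, against -7.76 to -7.29. Adra1a was 3.33 in the female of 20 weeks numbered 623, against 3.70 to 3.76. Adra1a was 4.00 in the male of 30 weeks numbered 537, against 2.66 to 2.67. Cyp1b1 was -1.43 in the female of 20 weeks numbered 517, against -1.37 to -1.36. Cyp1b1 was -3.27 in the male of 30 weeks numbered 619, against -2.85 to -2.85. Gpnmb was -1.79 in the female of 30 weeks numbered 510, against -5.02 to -4.56.

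In the comparisons of the depot difference between groups, genes of smallest p in each direction, up to 6 of them, passed the test of the difference itself (limma, adjusted over all genes). The depot difference on the log2 scale was higher in males than in females by the value given for Lhfpl2 1.13, Ret 1.48, Slc5a3 1.20, Nrn1 3.42, Tmem45a 1.82, Aspa 0.91. It was lower in males for Cyp1b1 -1.58, St6gal1 -0.81, Acss1 -1.22, Hs6st1 -1.14, Marveld1 -0.69. The depot difference on the log2 scale was higher in mice on the high-fat diet than in mice on the low-fat diet by the value given for Dock8 0.90, Ust 0.70, Ptprk 0.73, Celsr2 1.36, Gpc1 1.15, Hcn2 1.55. It was lower in mice on the high-fat diet for Insig1 -1.59, Fads2 -0.96, Cdkn2b -0.91, Fdft1 -0.89, Lctl -1.64, Pam -0.49. The depot difference on the log2 scale was higher in LG/J mice than in SM/J mice by the value given for C4a 4.09, Rab3ip 1.54, Kif16b 0.89, Aldh1a7 4.52, Nupr1 1.59, Ppa1 1.46. It was lower in LG/J mice for Fam129a -1.59, H2-Q10 -3.67, Clmp -1.84, Gpt2 -3.07, Nid2 -2.14, Cachd1 -2.66.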

How the results depend on the processing

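The counts of over 2-fold genes kept within 1.5 times under every alternative run, from 806 (as deposited) to 1228 higher in BAT and from 1413 (30 weeks alone) to 2364 (as deposited) higher in WAT. Calls of any size higher in BAT were 3349 with equal sums and 3069 as deposited. Without the replicate block, which pairs the libraries of an animal, calls were 5054 and 5089 of any size and 1197 and 1625 over 2-fold, each within 1.5 times the paired counts. Leaving out each pair gave 5076 to 5123 and 5079 to 5156 of any size, and 1184 to 1228 and 1599 to 1640 over 2-fold. For sex, leaving out each pair gave 364 to 1219 higher in males and 399 to 1533 higher in females, and keeping animal 351 gave 243 and 226. For diet, leaving out each high-fat pair gave 483 to 899 and 474 to 985, and keeping animal 351 gave 390 and 338. For strain these ranges were 2926 to 3161 and 3092 to 3252, and for age 0 throughout. Adrb3 turned to -0.065 as deposited, and Cox4i2 to -0.10 with equal sums and -0.16 as deposited; neither was called. Direction of the depot difference and status in the over 2-fold test were compared for the named genes under part of the alternatives. These were the other scalings, the changed pseudocount, animal 351 kept, and the lowest and highest result of leaving out each pair. The mean filter, no block and each sex or age alone were not counted. Direction and status were unchanged in 1323 cases, the call was lost in 13 and gained in 19, and the sign changed in 3. Fasn gained it with animal 351 kept, at 1.88 (limma treat, adjusted p = 0.045), and Slc5a3 lost its sex call with animal 351 kept (adjusted p = 0.0741). List medians were labelled as moved for 21 lists and the same for 16 with equal sums. As deposited these were 26 and 11, and under the other settings compared all 37 were the same. The causes were not tested. Because the tables were scaled apart, a log2 difference of about 0.3 or less has no firm direction. Depth in reads is unknown, so no counting error is given.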
